A study of Mus musculus with 4 samples.

Results

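The 10 genes described here encode regulators of mitochondrial and fat metabolism: the coactivators PGC-1α (Ppargc1a) and PGC-1β (Ppargc1b), the estrogen-related receptors ERRα (Esrra), ERRβ (Esrrb) and ERRγ (Esrrg), the peroxisome proliferator-activated receptors PPARα (Ppara), PPARδ (Ppard) and PPARγ (Pparg), nuclear respiratory factor 1 (Nrf1) and mitochondrial transcription factor A (Tfam). They were chosen by name, and all 10 were found by symbol among 23282 gene rows. Their transcripts were measured in gastrocnemius muscle of CDF1 mice by QuantSeq, which reads the 3′ ends of polyadenylated RNA, so that a count does not grow with transcript length. There were 4 libraries, 1 per group: normal control, without exercise or tumor (E-T-); normal exercise, run on a treadmill at high intensity (E+T-); cancer control, without exercise and injected with CT26 cells (E-T+); and cancer exercise, with both (E+T+). All 4 samples carry the label of postnatal day 28. The methods describe male mice bought at 4 weeks of age and killed at the end of the experiment, so the tissue was taken later than the labelled day. CT26 is a mouse colorectal cancer line, here given through the tail vein, so the tumor was spread through the body and not placed in the muscle. The study's design names 10 mice per group, while its results speak of a representative mouse, so whether a library held RNA of 1 animal or of several was not settled.

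PGC-1 coactivators do not bind DNA themselves. They are recruited by receptors such as the ERRs and PPARs and by NRF1, and they raise transcription of genes for respiration and fatty acid oxidation. NRF1 in turn acts on nuclear genes of the respiratory chain and on Tfam, whose protein packages mitochondrial DNA and helps to transcribe it. In skeletal muscle Ppargc1a is best known as a gene that responds to contraction and is abundant in oxidative fibres.

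The reads rebuilt from the deposited values, summed over all gene rows, ran from 10647726 to 13226114 per library. Of these the 10 genes took from 1984 to 2927, or 0.0186% to 0.0235%. No gene of the 10 was at 0 reads in any library. The summed share of 13 muscle fibre genes split the libraries by tumor, at 9.14% of reads in cancer control and 10.2% in cancer exercise beside 16.6% and 15.1% in the normal control and normal exercise libraries. The genes did not move as one: 5 of the 13 were at least 2-fold lower and 2 at least 2-fold higher in cancer control than in normal control. Of all genes 24.2% were lower and 20.9% higher between these libraries. The cancer control library stood apart in slow fibre and skin genes. Genes of slow fibres took 0.337% of its reads, against 0.0972% to 0.186% in the other libraries. All 9 skin keratinocyte genes found had reads in it, while 4, 4 and 5 of them were at 0 in normal control, normal exercise and cancer exercise. Their summed normalized count was 897 there and 105 to 258 elsewhere. The part of these differences in the values below was not tested. In bulk tissue, fewer cells of a type and less RNA per cell cannot be told apart. The comparisons of cancer control with another library rest on this library, and those of exercise without tumor and of tumor with exercise do not use it.

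The promoter letters below are shown because several of these regulators are known to act on one another's genes. They come from RefSeq, assembly GRCm38.p6 (mm10), and lie upstream of a start of transcription in RefSeq. By the GENCODE transcripts used below for gene positions, the Ppargc1a and Esrra stretches lie outside the gene, the Ppara stretch lies within the gene span but in no exon, and the Tfam stretch lies in an exon of a transcript that starts further upstream. Of the 10 genes, 9 had at least 1 promoter in the RefSeq table, with 16 windows of 250 bases in all. Ppargc1b had none there, so nothing below on letters covers it. Both strands were searched. The NRF1 letters CATGCGC (or their reverse complement) stood in windows of Esrra and Ppara and in 3.24% of all 32851 windows. The ETS letters CCGGAAGT, bound by the NRF2/GABP family, stood in the window of Tfam and in 2.88% of all windows. The core of a cAMP response element, TGACG, stood in windows of Ppargc1a, Esrrb and Ppara and in 17.8% of all windows. In the lines below the capitals mark the NRF1 letters in Esrra and in Ppara, where 2 matches overlap, the ETS letters in Tfam, and the response element core in Ppargc1a, read there on the other strand. The stretches lie at chr5:51567727-51567845, minus strand (Ppargc1a), chr19:6921814-6921928, minus strand (Esrra), chr15:85735714-85735775, plus strand (Ppara) and chr10:71238073-71238102, minus strand (Tfam).
Ppargc1a: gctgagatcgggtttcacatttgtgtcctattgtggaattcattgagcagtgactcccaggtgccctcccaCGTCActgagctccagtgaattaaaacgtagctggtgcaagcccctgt
Esrra: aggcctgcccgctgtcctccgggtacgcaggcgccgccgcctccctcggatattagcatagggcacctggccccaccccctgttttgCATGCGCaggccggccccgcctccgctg
Ppara: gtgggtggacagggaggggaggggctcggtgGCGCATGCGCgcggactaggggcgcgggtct
Tfam: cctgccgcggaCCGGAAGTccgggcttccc

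The ERR letters AAGGTCA stood in no window of these genes and in 4.08% of all windows. A direct repeat of AGGTCA with 1 base between, read by PPARs, stood in none of them and in 0.0335% of all windows. The full response element TGACGTCA, which holds the core named above (1.55% of all windows), the E-box CACGTG (6.02%) and the FOXO letters GTAAACA (3.17%) were likewise in none of them. The MEF2 motif was in a window of Esrrg and in a window of Nrf1, and in 2.92% of all windows. A match describes the letters only, and a missing match says only that the letters are not in these windows.

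PGC-1β gave the widest spread of the 10 genes over the 4 libraries. Values are given as normalized read counts, the level after the scaling used by the study, and gene positions are those of mm10 (GENCODE vM21). Ppargc1b (chr18:61298136-61400431, minus strand) stood at 220 in normal control and 217 in normal exercise, against 62.2 in cancer control and 194 in cancer exercise, from 207, 267, 58 and 179 reads. Cancer control was the lowest, and its 95% Poisson interval overlapped with none of the others. The log2 difference of cancer control from normal control was -1.81, with a counting interval of -2.27 to -1.40, or 3.5-fold lower. Cancer exercise was 1.62 above cancer control on the log2 scale (1.21 to 2.10). These 2 comparisons share the cancer control library. Between the libraries without it the differences were small: -0.02 for exercise without a tumor and -0.16 (-0.44 to 0.12) for tumor with exercise.

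Ppargc1a (chr5:51454250-51567726, minus strand) was likewise lowest in cancer control, over a narrower range. Its normalized counts were 514 in normal control and 391 in normal exercise, against 320 in cancer control and 456 in cancer exercise, on 299 to 483 reads. Each library overlapped with its neighbour in the order of levels. Normal exercise lay -0.39 from normal control on the log2 scale (-0.58 to -0.21), and cancer control lay -0.68 from it (-0.89 to -0.47). Cancer exercise lay 0.51 above cancer control (0.29 to 0.73). No difference of Ppargc1a reached 2-fold.

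Within a library the balance of both coactivators needs no scaling between libraries. Ppargc1a supplied 70.0% of the PGC-1 reads in normal control (exact 95% binomial interval 66.4 to 73.4), 64.4% in normal exercise (60.8 to 67.8), 83.8% in cancer control (79.5 to 87.4) and 70.2% in cancer exercise (66.3 to 73.8). The share in cancer control lay above the intervals of the other libraries. All intervals here cover counting error only, and the reads carried no molecular identifiers that the sources used here describe.

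**Figure D1:**
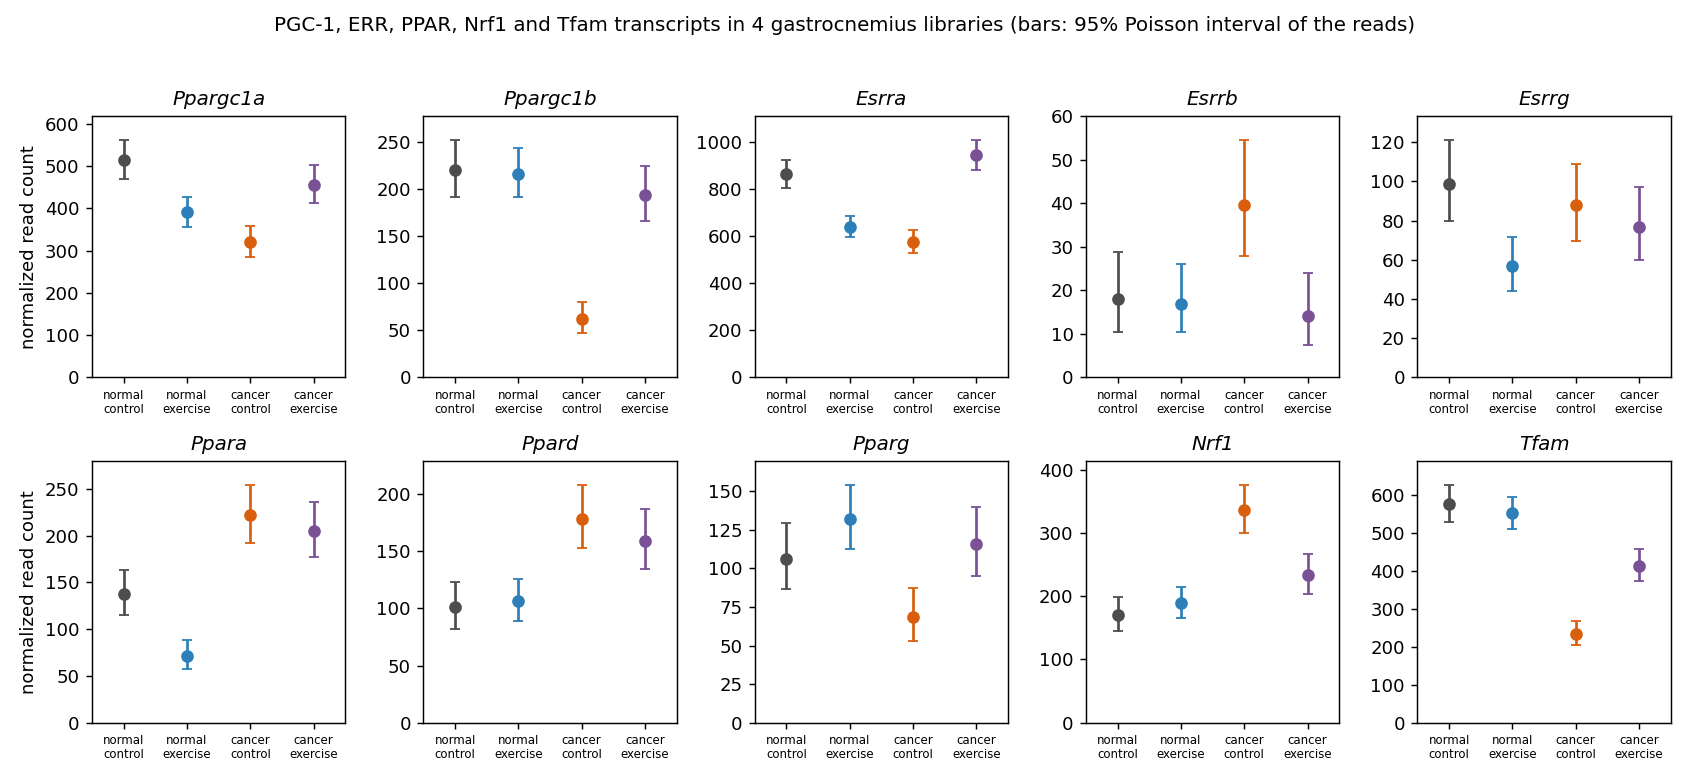
Normalized read count (y axis, from 0) of each of the 10 regulators in the 4 libraries (x axis), with bars for the 95% Poisson interval of the reads. Ppargc1b and Tfam are lowest in cancer control at 62.2 and 235, Nrf1 is highest there at 336, and Ppara is lowest in normal exercise at 71.2.

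The receptors of the ERR family bind DNA without a known natural hormone and depend on PGC-1 for their activity. Esrra (chr19:6910977-6921813, minus strand), the main ERR read in these libraries, stood at 862 in normal control and 641 in normal exercise, against 575 in cancer control and 945 in the cancer exercise library. The first and last of these overlapped, as did the middle pair, and the pairs lay apart. The log2 differences were -0.43 (-0.57 to -0.28) for exercise without a tumor, -0.58 (-0.74 to -0.43) for tumor without exercise, 0.71 (0.56 to 0.87) for exercise with a tumor and 0.56 (0.42 to 0.70) for tumor with exercise. All were under 2-fold. The 3′ end of Esrra shares 73 bases of exon with Trmt112, which runs the other way, and the handling of strand is not given in the sources used here, so the counts of Esrra are uncertain. Trmt112 stood at 564, 550, 884 and 907 in the libraries in the order just given, an order unlike that of Esrra. The other 9 genes share no exon bases with another gene in GENCODE vM21.

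Esrrb (chr12:86361117-86521628, plus strand), known for its part in stem cells and in oxidative fibres, was read little. Its normalized counts were 18.1 in normal control and 16.95 in normal exercise, against 39.6 in cancer control and 14.1 in cancer exercise, on only 13 to 37 reads. Cancer control was the highest, though its Poisson interval overlapped with that of normal control. It was 1.09 above normal control on the log2 scale (0.27 to 2.05), and cancer exercise was 1.42 below it (log2 difference -1.42, -2.53 to -0.55). Esrrg (chr1:187608791-188214885, plus strand), an ERR of oxidative tissue, stood at 98.9, 56.7, 87.8 and 76.9 in the same order of libraries. Normal exercise was the lowest, at a log2 difference of -0.79 from normal control (-1.27 to -0.34), and all neighbours overlapped. Esrrb supplied 5.64% of the ERR reads in cancer control (4.00 to 7.69) and 1.36% to 2.38% in the other libraries.

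The PPARs bind fatty acids and pair with retinoid X receptors. Ppara (chr15:85734983-85802819, plus strand), which drives fatty acid oxidation, stood at 137 in normal control and 71.2 in normal exercise, against 222 in cancer control and 205 in cancer exercise, on 88 to 207 reads. Normal exercise was the lowest and both tumor libraries were the highest, and these 2 overlapped. Cancer exercise was 1.51 above normal exercise on the log2 scale (1.15 to 1.90), or 2.85-fold. Cancer control lay 0.69 above normal control (0.37 to 1.02), and normal exercise lay -0.94 from normal control (-1.35 to -0.54), just inside 2-fold. Exercise with a tumor gave -0.12 (-0.41 to 0.18).

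Ppard (chr17:28232700-28301474, plus strand), the PPAR tied to endurance and oxidative fibres, followed the tumor more than the exercise in its levels. It stood at 101 in normal control and 106 in normal exercise, against 179 in cancer control and 159 in the cancer exercise library. The tumor libraries overlapped with each other, the others overlapped with each other, and the pairs lay apart. Its log2 differences were 0.82 (0.45 to 1.20) for tumor without exercise and 0.58 (0.23 to 0.94) for tumor with exercise, both under 2-fold.

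Pparg (chr6:115360951-115490399, plus strand), the master regulator of fat cells, was lowest in the library where Ppara and Ppard were highest. Its normalized counts were 106, 132, 68.6 and 116 in the same order of libraries. Cancer control was the lowest but overlapped with normal control. The log2 difference was -0.62 for tumor without exercise (-1.11 to -0.17) and 0.75 for exercise with a tumor (0.30 to 1.23). Markers of fat cells moved in the same libraries. Of the 14 adipocyte genes, 13 met the minimum count between normal control and cancer control and 11 of these were at least 2-fold lower in cancer control, with 1 higher. Of the 12 that met it between the tumor libraries, 10 were higher in cancer exercise and 1 lower. Of all genes 24.2% were lower in the first comparison and 15.6% higher in the second. Their summed normalized count ran from 13064 in cancer control to 41045 in normal control, with 24216 in normal exercise and 28115 in cancer exercise. Their part in the Pparg values was not tested.

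Among all PPAR reads, Ppara supplied 39.8% in normal control (34.4 to 45.4), 23.04% in normal exercise (18.9 to 27.6), 47.3% in cancer control (42.5 to 52.1) and 42.7% in cancer exercise (38.0 to 47.4). Pparg supplied 42.7% in normal exercise (37.7 to 47.8) and 14.6% in cancer control (11.4 to 18.3), with 30.9% and 24.2% in normal control and cancer exercise. Ppard varied least, from 29.3% to 38.1%. The PPAR with most reads was thus Pparg in normal exercise and Ppara in the other 3 libraries, although the priming of each transcript may differ. In every library but cancer exercise its interval overlapped with that of the next PPAR, as with Ppard in normal exercise (34.3%, 29.5 to 39.3).

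In cancer control Nrf1 was at its highest and Tfam at its lowest level. Nrf1 (chr6:30047988-30153458, plus strand) stood at 170 in normal control and 189 in normal exercise, against 336 in cancer control and 233 in cancer exercise. Cancer control was the highest, and its interval overlapped with none of the others. It was 0.98 above normal control on the log2 scale (0.70 to 1.27), just under 2-fold, and cancer exercise lay -0.53 from cancer control (-0.79 to -0.28).

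Tfam (chr10:71225464-71238280, minus strand) stood at 575 in normal control and 552 in normal exercise, against 235 in cancer control and 413 in cancer exercise. Normal control and normal exercise overlapped, and the tumor libraries lay below them and apart from each other. Cancer control was 2.45-fold below normal control, a log2 difference of -1.29 (-1.53 to -1.07). Cancer exercise lay 0.81 above cancer control (0.57 to 1.06) and -0.42 from normal exercise (-0.60 to -0.24). Of the reads of both genes, Nrf1 took 22.8% in normal control (19.8 to 26.1), 25.5% in normal exercise (22.7 to 28.4), 58.9% in cancer control (54.6 to 63.1) and 36.1% in cancer exercise (32.2 to 40.1).

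Each group had a single library, so no replicate spread exists and no test of a condition was made. Changed means here that the deposited log2 values differed by at least 2-fold while the normalized count reached 4 or more in at least 1 library of the pair. All 10 genes met that minimum in each comparison. Exercise without a tumor changed 0 of the 10, where 21.5% of 14518 genes changed, 9.44% higher and 12.1% lower. The tumor without exercise changed 3 of 10 (Esrrb higher, Ppargc1b and Tfam lower), where 45.1% of 14818 genes changed, 20.9% higher and 24.2% lower. Exercise with a tumor changed 2 of 10 (Ppargc1b higher, Esrrb lower), where 30.6% of 14491 genes changed, 15.6% higher and 15.1% lower. The tumor with exercise changed 1 of 10 (Ppara higher), where 30.3% of 14470 genes changed, 13.9% higher and 16.3% lower. At 2-fold the share of regulators that changed lay below that of all genes in every comparison, though with 10 genes a single call moves it widely. At 1.5-fold the share of regulators was above that of all genes for tumor without exercise (8 of 10, beside 64.3%). It was about the same for exercise with a tumor (5 of 10, beside 49.5%). It was below for exercise without a tumor (2 of 10, beside 37.9%) and for tumor with exercise (1 of 10, beside 49.1%). When only genes with a normalized count of at least 16 were kept, the shares of all genes were 14%, 40.1%, 23.8% and 23.7%. The counts of regulators stayed at 0, 3, 2 and 1 of 10, so that for exercise with a tumor stood near the background.

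The counting interval left out 0 for 4, 9, 7 and 6 of the 10 genes in the same order of comparisons. The shares over all genes were 56.8%, 71.5%, 63.5% and 64.2%. The median log2 difference of the 10 genes was -0.08, -0.38, 0.20 and 0.26, beside -0.01, -0.04, 0.01 and -0.03 for all genes.

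**Figure D2:**
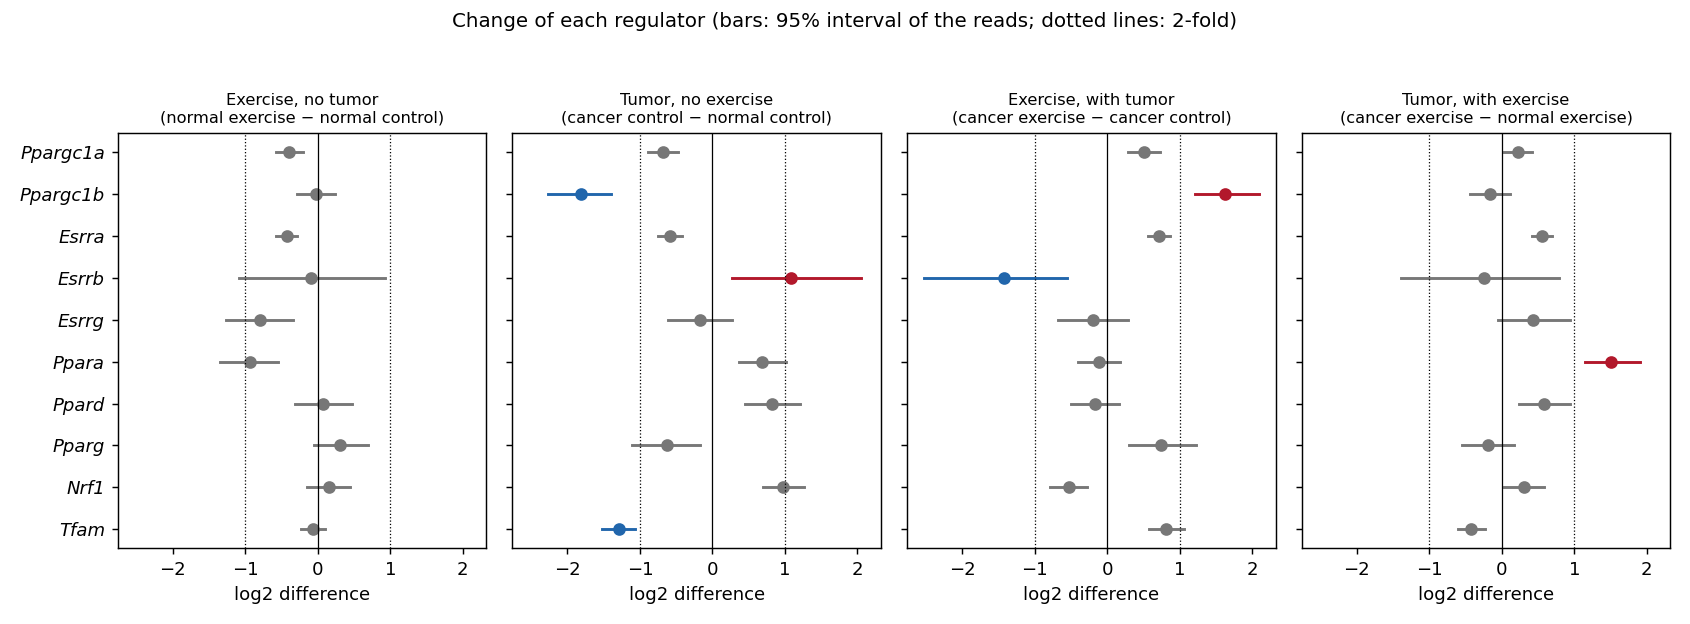
Log2 difference (x axis) of each regulator (y axis) in the 4 comparisons, with 95% counting intervals. Red points are at least 2-fold higher, blue points at least 2-fold lower and grey points within 2-fold (dotted lines): 0, 3, 2 and 1 of the 10 genes are coloured from left to right.

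The effect of exercise was set side by side in mice without and with a tumor. Each effect was taken against its own control library, so no library is shared between them. Ppargc1a gave -0.39 without and 0.51 with a tumor, and Esrra gave -0.43 and 0.71. These were the only ones of the 10 whose counting intervals left out 0 on opposite sides. The same held for 20.8% of the 13524 genes that met the minimum in both exercise comparisons. The regulators thus stood near the background in this respect. Tfam gave -0.06 and 0.81 and Ppargc1b -0.02 and 1.62, where the first value was within counting error. Pparg was positive in both (0.31 and 0.75). Esrrg (-0.79 and -0.19) and Ppara (-0.94 and -0.12) were below 0 in both, further so without a tumor. Nrf1 gave 0.15 and -0.53 and Esrrb -0.09 and -1.42. The difference between both effects was largest for Ppargc1b (1.65), followed by Esrrb (-1.33) and Esrra (1.14), and could not be tested without replicates.

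**Figure D3:**
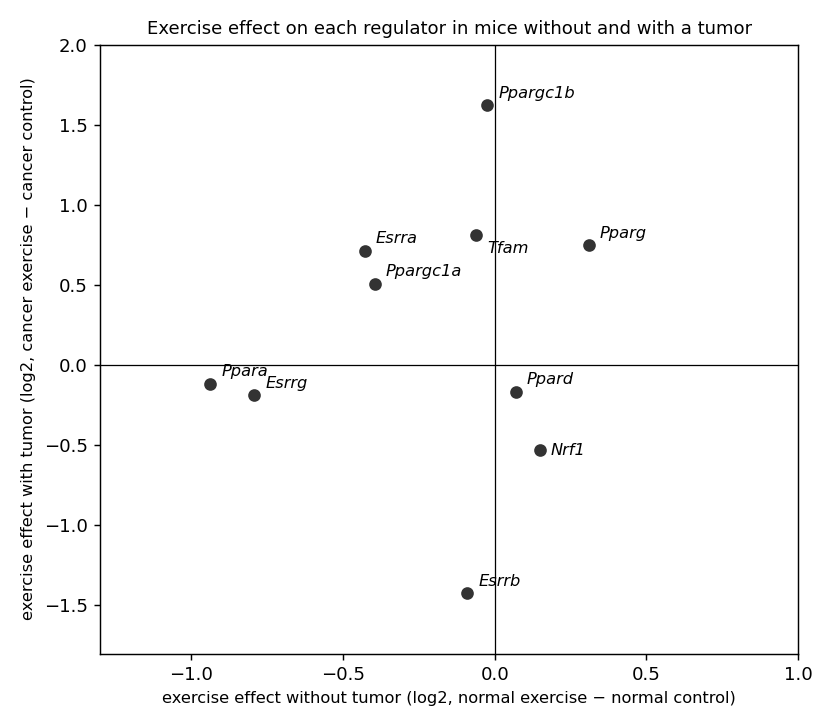
Log2 exercise effect on each regulator without a tumor (x axis, normal exercise minus normal control) and with a tumor (y axis, cancer exercise minus cancer control), 1 point per gene. Ppargc1a (-0.39, 0.51) and Esrra (-0.43, 0.71) lie in the upper left, Pparg alone in the upper right, and Esrrb lowest at -1.42 on the y axis.

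Genes around these regulators were counted in lists. Of 30 coregulators and partners, exercise without a tumor left 1 at least 2-fold higher and 2 lower, and 6 were higher and 8 lower with the tumor alone. With exercise in tumor mice 6 were higher and 4 lower, and with the tumor in exercised mice 3 were higher and 3 lower. The shares of all genes that changed were 21.5%, 45.1%, 30.6% and 30.3% in these comparisons, so for the tumor alone (14 of 30) and for exercise in tumor mice (10 of 30) the list stood near the background. Perm1, a muscle factor induced by PGC-1 and ERR, stood at 2067 in normal control and 1307 in normal exercise, against 273 in cancer control and 1383 in the cancer exercise library. Its log2 difference was -2.92 for tumor without exercise (-3.11 to -2.73) and 2.34 for exercise with a tumor (2.15 to 2.54). Rxrg, the PPAR partner most typical of muscle, stood at 867, 1389, 41.8 and 366 in the same order, 4.34 lower on the log2 scale in cancer control than in normal control (log2 difference -4.34, -4.88 to -3.91).

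The other retinoid X receptors did not follow Rxrg. Rxra stood at 871, 1263, 1457 and 879, and Rxrb at 413, 244, 457 and 348, with no 2-fold difference in the 4 comparisons. Pprc1, the third member of the PGC-1 family, stood at 41.5, 36.4, 66.4 and 72.5. Sirt3, a mitochondrial deacetylase, stood at 214 in normal control and at 45.3, 21.5 and 40.1 in the other libraries, so it was at least 2-fold lower with exercise alone and with the tumor alone. Gabpa, a DNA-binding subunit of the ETS factor whose letters are in the Tfam stretch above, stood at 98.9, 79.3, 237 and 109. Its high point in cancer control was the low point of Tfam. Its partner subunit Gabpb1 stood at 95.7, 90.7, 142 and 103.

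Of 25 genes for the expression and replication of mitochondrial DNA, 24 met the minimum in both comparisons that use normal exercise, and 25 in the others. The tumor without exercise left 2 higher and 8 lower, and exercise with a tumor left 3 higher and 2 lower. For exercise without a tumor the count was 1 in each direction, and for the tumor with exercise it was 2 in each direction. All 4 counts lay below the shares of all genes just given. Tfb1m, an RNA methyltransferase of the mitochondrial ribosome, stood at 112, 81.1, 37.5 and 75.8, with a log2 difference of -1.55 for tumor without exercise (-2.17 to -1.01). The related Tfb2m, which starts mitochondrial transcription together with TFAM, stood at 368, 389, 437 and 375, and the mitochondrial RNA polymerase Polrmt at 149, 169, 142 and 187. Neither of them differed by 2-fold in any comparison. Polg2, the accessory subunit of the mitochondrial DNA polymerase, stood at 46.8, 21.8, 4.34 and 49.7 and rested on 4 reads in cancer control. Mterf1a had the largest difference of the list for exercise with a tumor, in the other direction (log2 difference -4.27). It stood at 3.22, 0, 19.1 and 0.0389, on only 3, 0, 18 and 0 reads.

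Of 35 targets of PGC-1 and the ERRs, 0 were at least 2-fold higher and 10 lower for tumor without exercise, with a median log2 difference of -0.49, where 20.9% of all genes were higher and 24.2% lower. The 10 lower genes are thus near the background share. For exercise with a tumor 4 were higher and 0 lower (median 0.32), for exercise without a tumor 0 were higher and 1 lower (median -0.29), and for tumor with exercise none changed (median 0.13), where 30.6%, 21.5% and 30.3% of all genes changed. With total count scaling the call of exercise without a tumor was lost (Mb) and the 4 of exercise with a tumor became 2, without Cycs and Dlat. Cycs, cytochrome c, stood at 9101, 5784, 2591 and 5322, with log2 differences of -1.81 for tumor without exercise and 1.04 for exercise with a tumor. Idh3a, of the citric acid cycle, stood at 4924, 3630, 1391 and 3533. Mb, myoglobin, stood at 28684, 13738, 7165 and 11330 and was the 1 gene of the list that was lower with exercise in the absence of a tumor (log2 difference -1.06, or -0.90 with total count scaling). Ckmt2, the mitochondrial creatine kinase of muscle, stood at 9755, 5014, 2023 and 3204.

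Not all genes of respiration moved in this way. Atp5b stood at 13465, 10491, 12925 and 16157, and Cox4i1 at 13224, 12076, 13418 and 12650, with no 2-fold difference. Cs, citrate synthase, stood at 3829, 3077, 2707 and 3401. Vegfa, the growth factor of blood vessels, stood at 1470, 1179, 891 and 1922 and was 1.11 higher on the log2 scale in cancer exercise than in cancer control.

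Targets of the PPARs had the median farthest from 0 between both exercise libraries, the comparison in which Ppara was at least 2-fold higher. Ppara was also higher for tumor without exercise (log2 difference 0.69), where the median of these targets was -0.03. For tumor with exercise, 33 of the 35 targets met the minimum. Of these, 12 were at least 2-fold higher and 0 lower, with a median of 0.66, where 13.9% of all genes were higher. For exercise without a tumor 1 of 34 was higher and 7 were lower (median -0.36), for tumor without exercise 7 of 34 were higher and 6 lower (median -0.03), and for exercise with a tumor 4 of 33 were higher and 0 lower (median 0.39). All genes changed in 21.5%, 45.1% and 30.6% of cases in these 3 comparisons. The comparisons share libraries, and a low level in normal exercise enters both exercise without a tumor and tumor with exercise. Pdk4, which shuts glucose carbon out of mitochondria, stood at 427 in normal control and 21.7 in normal exercise, against 1060 in cancer control and 969 in the cancer exercise library. Its log2 difference was -4.23 for exercise without a tumor (-4.90 to -3.72) and 5.42 for tumor with exercise (4.92 to 6.08).

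Angptl4, an inhibitor of lipoprotein lipase, was likewise lowest in normal exercise, at 168, 23.3, 82.5 and 108. Ucp3, an uncoupling protein of muscle, stood at 592 in normal control and 145 in normal exercise, against 251 in cancer control and 562 in cancer exercise. Acot1, a thioesterase of fatty acyl-CoA, stood at 11.8, 16.9, 247 and 158. Its counts are uncertain because near-identical genes of its family lie beside it and can share reads. Plin2, a lipid droplet protein, stood at 292, 631, 229 and 364 and was 1.11 higher on the log2 scale with exercise in the absence of a tumor (0.91 to 1.31). Cpt1b, which takes fatty acids into mitochondria, stood at 1467, 1680, 1635 and 2229 with no 2-fold difference.

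**Figure D4:**
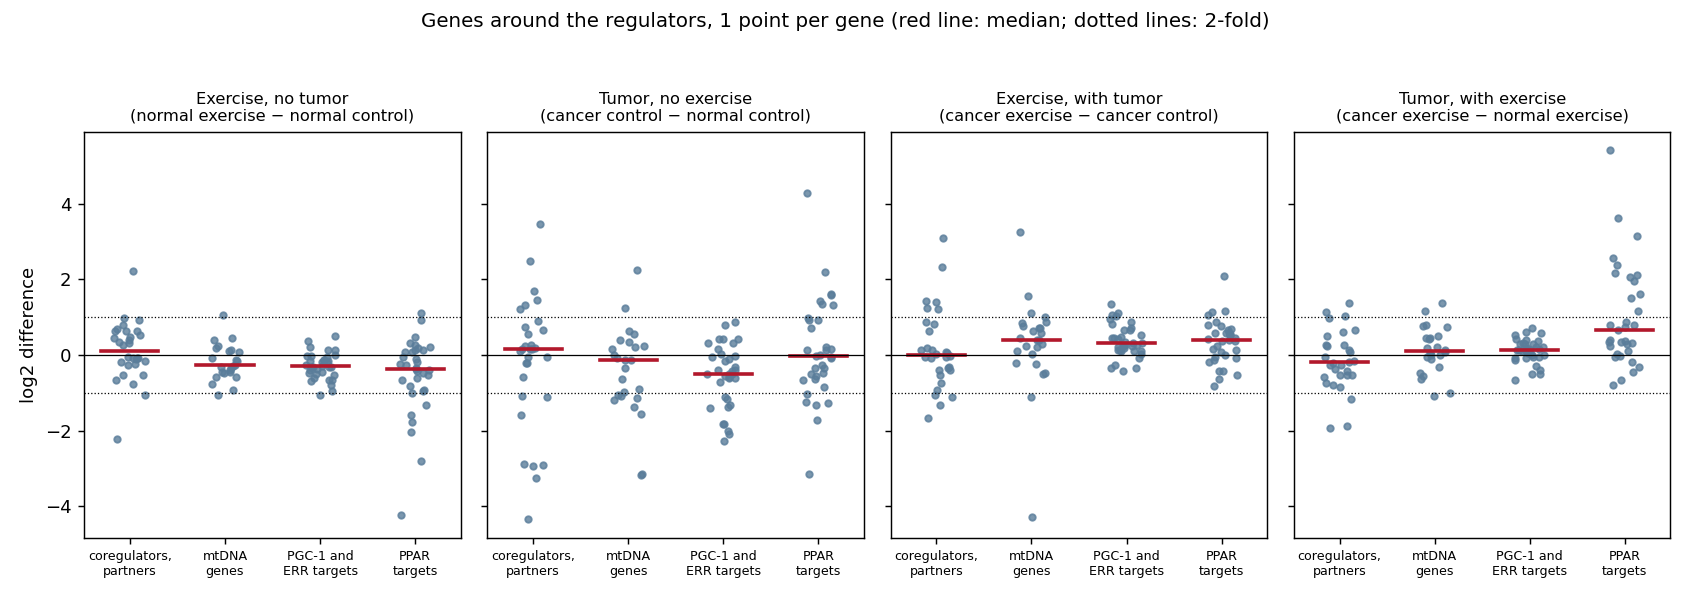
Log2 difference (y axis) of every gene of 4 lists that met the minimum count, 1 point per gene, in the 4 comparisons, with the median as a red line. The median of the PGC-1 and ERR targets lies at -0.49 for tumor without exercise and 0.32 for exercise with a tumor, and that of the PPAR targets at 0.66 for tumor with exercise.

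Marker genes of other cells of the tissue were also compared among the libraries. Of all reads, red cell genes were 2.75% in normal control, 0.619% in normal exercise, against 2.77% in cancer control and 5.82% in cancer exercise. Their low point was thus the library in which Ppara, Pdk4 and Angptl4 were lowest, and their part in those values was not tested. Of the 11 slow fibre genes, 9 were at least 2-fold higher and 0 lower in cancer control than in normal control, while Ppargc1a, a regulator typical of such fibres, was lower there by less than 2-fold. Normal exercise had 4 of them higher and 0 lower than normal control, where 9.44% of all genes were higher and 12.1% lower. Of the 10 macrophage and neutrophil genes, 4 were higher and 0 lower for tumor without exercise, while 5 of the 10 had a log2 difference below 0. Of the 8 endothelial genes 1 was higher and 0 lower. For tumor without exercise 20.9% of all genes were higher and 24.2% lower, so the endothelial genes changed less often than all genes.

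Among regulators with a mean normalized count of at least 16, the 3 with the widest range were Ppargc1b, Ppara and Esrrb, and the genes whose levels ran most like theirs were taken by the root mean square difference of centred log2 values over the 4 libraries. For Ppargc1b these were Ssfa2 (0.0232), 1190007I07Rik (0.0272) and Chn1 (0.0314), and 285 of 12055 genes lay within 0.25. For Ppara they were Hsbp1l1 (0.0158), Rrs1 (0.0655) and Pik3r1 (0.0758), with 177 genes within 0.25. For Esrrb they were Zranb1 (0.0262), Stam2 (0.0336) and Auts2 (0.0339), with 234 genes within 0.25. With 4 libraries such a likeness is a description of these samples.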

How the data were processed

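RNA was extracted with Trizol, and libraries were made from 500 ng with the Lexogen QuantSeq kit, per the labels. The authors used Bowtie2 for alignment and bedtools for counts per gene, followed by quantile normalization in edgeR. The submitters' processing notes name mm10. The handling of strand, duplicates and multiply mapped reads is not given in the sources used here. Each deposited table holds, for 1 library, log2 values of the normalized read count after adding 1.

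Samples were grouped by their titles. Normalized counts were taken back from the log2 values. Reads were rebuilt by fitting the quantile adjustment (4 library scales and a dispersion of 0.339), which gave whole reads within 0.0006 for 100% of values. The calculation was tested on simulated data. Levels carry 95% Poisson intervals of the reads. For differences, the Clopper-Pearson interval of the proportion of reads in the first library was converted to a log2 ratio. A fold change on the log2(value + 1) scale understates changes of low genes. With 1 library per group no p-value was computed, and the precision is that of the rebuilt reads (10647726 to 13226114 per library, summed over gene rows).

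The members and lists were chosen with earlier results of these data known. Named were all 10 genes, the first 5 of each pathway list as written and the gene of each such list with the largest difference in each comparison. Trmt112 was named because it overlaps Esrra. Gene positions are from GENCODE vM21 and promoters from RefSeq, both of mm10. Alternatives were other scalings (total count, TMM, median of ratios), pseudocounts, minimum counts and fold thresholds. Python 3.11.15, numpy 2.4.6, scipy 1.17.1 and pandas 2.3.3 were used.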

Additional observations from a re-analysis of the deposited data

Results flagged for a closer look

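Of 39 named regulators and pathway genes, 17 differed with exercise in one direction without a tumor and in the other with a tumor, with both counting intervals leaving out 0. Over all 13524 genes that met the minimum in both exercise comparisons the share was 20.8%. Of the 39 genes, 9 were named for having the largest difference in a comparison and gave 7 of the 17, so the count is partly chosen on the outcome. The other 30 gave 10. The difference between both effects was not tested, because each group had 1 library. Values are the log2 effect of exercise with a tumor minus that without. Among the 10 regulators these were Ppargc1a (0.90) and Esrra (1.14). Among coregulators and partners they were Perm1 (2.997), Sirt3 (3.09) and, in the opposite sense, Rxra (-1.26). For mitochondrial DNA the values were 1.45 for Tfb1m, 4.31 for Polg2 and 1.38 for Peo1, the older symbol of the helicase Twinkle. Polg2 rested on 4 reads in cancer control. Among PPAR targets Ucp3 gave 3.19 and Pex11a, a peroxisome protein, gave 2.49. Among targets of PGC-1 and ERR the values were 1.69 for Cycs, 0.64 for Cs, 1.78 for Idh3a, 0.68 for Atp5b, 1.72 for Mb, 1.62 for Ckmt2 and 1.43 for Vegfa.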

How the results depend on the processing

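No paired analysis was possible because each group had 1 library. Under the alternatives, the log2 differences of the 10 regulators kept to their reported values within the counting interval in 198 of 200 cases, and none of the values past 2-fold reversed. The other 2 were Esrra with total count scaling, at -0.27 for exercise without a tumor and 0.40 for tumor with exercise. That scaling moved the median of all genes to 0.15 and -0.19 in these comparisons. It turned the small values of Ppargc1b (0.14), Esrrb (0.07) and Tfam (0.10) above 0 for exercise without a tumor, and split the changed genes there into 1685 higher and 1502 lower, against 1371 and 1750 as reported. For tumor with exercise it gave 1702 higher and 2797 lower, against 2014 and 2364.

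With a fold of 1.5 the number of changed regulators was 2 for exercise without a tumor, 8 for tumor without exercise and 5 for exercise with a tumor. The shares of all genes were then 37.9%, 64.3% and 49.5%, so the regulators stood above the share of all genes for tumor without exercise and near it for exercise with a tumor. For tumor with exercise the number stayed at 1, beside 49.1% of all genes. With a fold of 4 the number was 0 in every comparison. The shares of all genes were then 9.9% for exercise without a tumor, 21.4% for tumor without exercise, 14.2% for exercise with a tumor and 13.5% for tumor with exercise. For tumor without exercise, total count and median of ratios scaling gave 4 by adding Nrf1, and a pseudocount of 4 gave 2 by losing Esrrb. Of 160 counts of the 4 pathway lists, 29 moved by over 1.5 times, 25 of them with another fold. The other 4 were the mitochondrial DNA genes for exercise without a tumor (1 with total count scaling and 1 with a pseudocount of 4, against 2) and the targets of PGC-1 and the ERRs with total count scaling (0 against 1 for exercise without a tumor, 2 against 4 for exercise with a tumor). The cause was not tested beyond the construction of each setting. Depth limits Esrrb most, with 13 to 37 reads.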
